A study of Mus musculus with 33 samples.

Results

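The genes described here were 40 members of the Toll, NF-kB and cytokine system, taken by name out of the 38355 genes counted in the aged mice. They comprised 7 cytokines, 5 chemokines, 5 NF-kB subunits, 5 inhibitors and feedback genes, 2 TNF receptors, 6 Toll-like receptors and co-receptors, 5 adaptors and kinases, 3 inflammasome genes and 2 adhesion molecules. Toll-like receptors sense microbial or damaged-tissue molecules and, through the adaptor MyD88 and the IRAK and IKK kinases, release NF-kB dimers from their inhibitory IkB proteins in the cytoplasm. The freed dimers enter the nucleus and switch on cytokines, chemokines, adhesion molecules and their own inhibitors, so that the response is limited by feedback. In the brain most of these genes are used by microglia, the resident macrophages, which gather around amyloid plaques and change their expression there. JQ1 is a small molecule that displaces bromodomain and extraterminal (BET) proteins from acetylated chromatin, where they help transcription to proceed.

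RNA was sequenced from the microdissected CA1 field of the hippocampus in 2 experiments. In the aged experiment the mice were 8 to 10 months old and comprised 6 APP mice given JQ1 (APP_JQ1), 6 APP mice given vehicle (APP_vehicle) and 4 WT mice given vehicle (WT_vehicle), with 1 more WT mouse, replicate 2, not analysed here. APP mice belonged to a transgenic line on a C57B/6 background, in which neurons express human mutant APP and a further transgene from the Thy1 promoter, so that amyloid in this model comes from overexpression in neurons. JQ1 was injected into the peritoneum at 50 mg/kg for 10 days and the vehicle held 10% DMSO. The strain label of the WT mice also named the APP line, whereas their titles called them WT. Young mice were C57B/6JRj animals without transgenes, aged 3 months, of which 8 received JQ1 at the same dose for 13 days and 8 received vehicle. All mice of both experiments had been trained in the water maze, and per the study's methods the mice of 8 to 10 months were female and the young mice male. The comparisons ask how much of the system was raised in APP mice, whether JQ1 lowered it there, and whether JQ1 moved it in young WT mice.

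Values of the aged mice are given in CPM, the read count of a gene scaled to a fixed total of reads on genes and normalised by TMM, from 14605459 to 25339482 reads on genes per library, so that 3 reads corresponded to 0.117 to 0.200 CPM. Values of the young mice are FPKM, fragments scaled to gene length and library total, for which no depth was known. Markers of neurons (summed CPM of 7 genes, 8499.9 to 11904) and of the CA1 field (4 genes, 693 to 1126) were high in every aged library, while 7 markers of infiltrating leukocytes summed to at most 5.44 CPM. The choroid plexus marker Ttr reached 3065 CPM in WT_vehicle replicate 4 and at most 115 CPM in the other aged libraries. On the first principal component APP_JQ1 replicates 3 and 4, APP_vehicle replicate 4 and WT_vehicle replicate 1 lay apart from the other 12 libraries, and the numbers of members called in the aged comparisons are also given without them.

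The library labelled APP_JQ1 replicate 4 went against its label. Thy1, whose promoter drives the transgenes, was at 820 CPM in it, against 1618 to 2070 CPM in the other 5 JQ1-treated APP mice, 1890 to 2342 CPM in the vehicle-treated APP mice and 841 to 1070 CPM in the WT mice. App at 1781 CPM lay below every WT mouse (1854 to 1992 CPM), whereas the other 5 were at 2070 to 2496 CPM. Cst7, a protease inhibitor that microglia express around plaques, had no read in this library and 14.2 to 38.2 CPM in the other 5. Its 10 microglial markers summed to 492.6 CPM, within the WT range of 444 to 494 CPM, whereas the other JQ1-treated APP mice held 1090 to 1847 CPM. The library was kept in the fits, since groups were taken from the labels, and the comparisons of the JQ1-treated APP mice are given with it and without it.

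**Figure D1:**
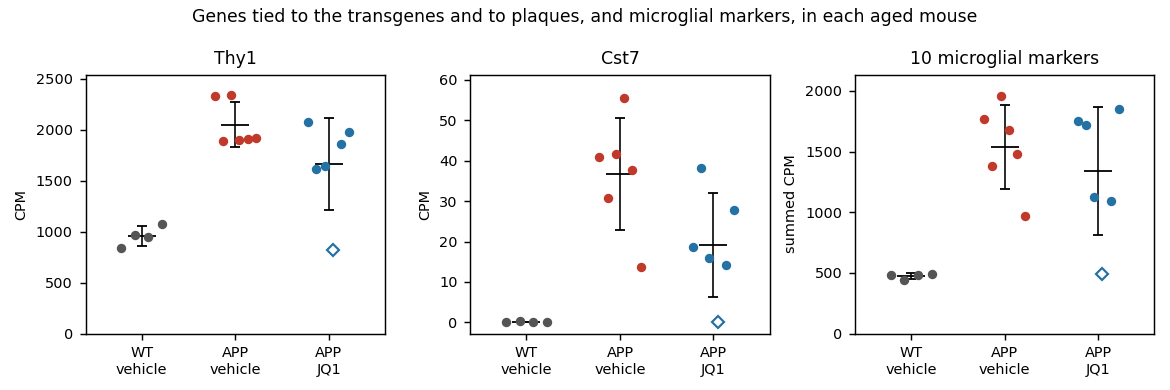
Levels of Thy1 and Cst7 in CPM and the summed CPM of 10 microglial markers in each aged mouse (WT vehicle n = 4, APP vehicle n = 6, APP JQ1 n = 6), each point 1 mouse, with the mean and SD of the group as bars. The open diamond is the library labelled APP_JQ1 replicate 4, which lay at or below the WT mice for Thy1 (820 CPM) and Cst7 (0 CPM).

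RefSeq promoters on GRCm38.p6, the assembly also named mm10, were searched for the consensus kB motif, the 10-base site that NF-kB dimers bind, on both strands of the 250 bases before each start. The table held 29 of the 40 members, and 12 of them (41.4%) had at least 1 motif at a start, against 2225 of 27025 genes in the table (8.23%). It had no entry for Ccl2, Ccl5, Cxcl16, Nfkb1, Relb, Nfkbiz, Tlr4, Tlr7, Cd14, Ikbkb or Vcam1. Of the 8 members with an entry that rose in APP mice, 4 had a motif. The other motif-bearing members were Il6, Rel, Tlr3, Irak1 and Nlrp3. The 7 sequences shown are 4 genes that rose in APP mice and 3 of the inhibitors that limit NF-kB, each read 5′ to 3′ towards its start, with the motif in capitals. Cxcl10 is chr5:92348890-92349139 on the minus strand, Nfkb2 chr19:46304487-46304736 on the plus strand, Tlr2 chr3:83841609-83841858 on the minus strand, Tgfb1 chr7:25686752-25687001 on the plus strand, Nfkbia chr12:55492648-55492897 on the minus strand, Nfkbie chr17:45555450-45555699 on the plus strand and Tnfaip3 chr10:19015411-19015660 on the minus strand.
Cxcl10: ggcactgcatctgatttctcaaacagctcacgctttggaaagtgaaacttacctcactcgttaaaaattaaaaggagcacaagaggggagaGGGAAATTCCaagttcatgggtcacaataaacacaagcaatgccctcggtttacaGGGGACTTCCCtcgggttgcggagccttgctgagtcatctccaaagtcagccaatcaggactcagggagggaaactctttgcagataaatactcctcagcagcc
Nfkb2: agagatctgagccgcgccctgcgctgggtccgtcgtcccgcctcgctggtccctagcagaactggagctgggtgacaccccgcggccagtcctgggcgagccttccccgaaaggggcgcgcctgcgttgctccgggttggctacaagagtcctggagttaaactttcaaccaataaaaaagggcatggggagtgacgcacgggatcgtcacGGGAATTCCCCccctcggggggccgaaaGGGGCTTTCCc
Tlr2: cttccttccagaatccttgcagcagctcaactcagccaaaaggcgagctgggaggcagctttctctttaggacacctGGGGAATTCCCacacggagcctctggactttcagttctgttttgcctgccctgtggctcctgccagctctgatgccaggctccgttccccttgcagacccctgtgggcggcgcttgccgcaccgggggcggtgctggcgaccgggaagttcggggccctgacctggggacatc
Tgfb1: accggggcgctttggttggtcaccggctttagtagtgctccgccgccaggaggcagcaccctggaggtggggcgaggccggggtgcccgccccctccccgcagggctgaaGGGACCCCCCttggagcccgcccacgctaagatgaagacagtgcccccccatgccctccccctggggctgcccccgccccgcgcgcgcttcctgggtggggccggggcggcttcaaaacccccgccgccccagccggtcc
Nfkbia: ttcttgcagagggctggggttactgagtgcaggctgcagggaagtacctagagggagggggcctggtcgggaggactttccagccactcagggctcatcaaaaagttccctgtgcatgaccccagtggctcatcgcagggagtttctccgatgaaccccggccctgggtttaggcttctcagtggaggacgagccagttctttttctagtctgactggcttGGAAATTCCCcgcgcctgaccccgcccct
Nfkbie: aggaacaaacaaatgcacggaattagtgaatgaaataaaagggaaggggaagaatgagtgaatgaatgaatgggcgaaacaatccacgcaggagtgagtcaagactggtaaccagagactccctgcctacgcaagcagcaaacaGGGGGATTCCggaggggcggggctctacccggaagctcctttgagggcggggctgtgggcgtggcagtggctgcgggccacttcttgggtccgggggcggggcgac
Tnfaip3: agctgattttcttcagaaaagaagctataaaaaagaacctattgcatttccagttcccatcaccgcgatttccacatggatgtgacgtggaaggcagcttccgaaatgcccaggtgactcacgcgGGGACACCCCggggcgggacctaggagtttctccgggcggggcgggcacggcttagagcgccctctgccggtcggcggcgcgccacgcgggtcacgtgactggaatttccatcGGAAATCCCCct

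Cxcl10 held 3 motif matches, 2 of them overlapping, whose last bases lay 94 to 150 bases before the start. Nfkb2, which encodes the p100 and p52 subunit, held 3 within 30 bases of its first start, some of them overlapping. The 2 overlapping matches of Tlr2 ended 163 and 164 bases before the start, and the single match of Nfkbia, the gene of IkB alpha, ended 20 bases before it. A match describes the letters of these windows and not binding, which was not measured here.

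Levels per length in the WT mice set the scale of the system in CA1. Per kilobase of exon, Il18, a cytokine released by the inflammasome, was the highest member at 24.7 CPM per kb (mean of 4 WT mice), followed by Nfkbia at 16.4, the kinase Irak1 at 16.3, Rela, the main transactivating subunit, at 8.64 and Nfkbib, the gene of IkB beta, at 8.63 CPM per kb. Toll-like receptor genes were lower, from 0.144 CPM per kb for Tlr4, the receptor of bacterial lipopolysaccharide, to 2.20 for Tlr3, which senses double-stranded RNA. The classical inflammatory cytokines were close to the detection limit. Tnf, the ligand of both TNF receptors, had 0 to 4 reads per library in WT mice, 0 to 10 in vehicle-treated APP mice and 0 to 5 in JQ1-treated ones. For Il6 the highest library of the 16 had 5 reads. Il1rn, the natural antagonist of the interleukin-1 receptor, had 1 read in the 4 WT libraries together and 1 to 16 reads in each vehicle-treated APP library. These 3 genes had too few reads to be tested, which left 37 members tested in the aged mice.

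**Figure D2:**
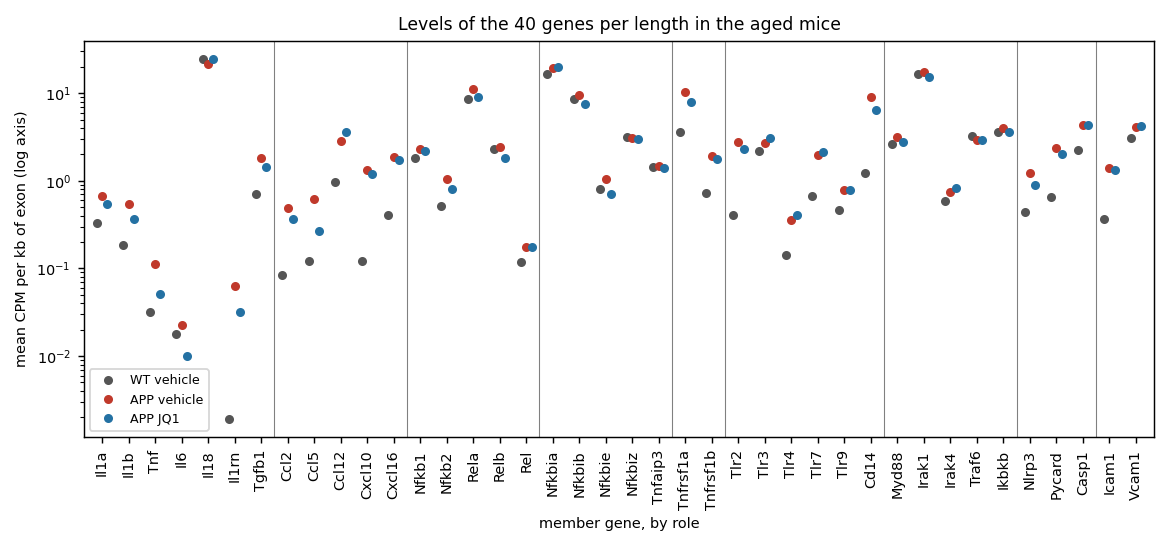
Mean CPM per kilobase of exon, on a log axis, for the 40 genes ordered by role, in WT vehicle (n = 4), APP vehicle (n = 6) and APP JQ1 (n = 6) mice, with a mean of 0 left out. Tnf, Il6 and Il1rn lay at the bottom, Il18, Irak1 and Nfkbia at the top, and the vehicle-treated APP mice lay above the WT mice for most receptors and chemokines.

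In vehicle-treated APP mice 12 of the 37 members tested were higher than in WT mice and none was lower (edgeR quasi-likelihood test, adjusted p under 0.05), where 2.57% of all 16962 genes tested were called and 2.49% were called higher. The raised members were receptors and co-receptors (Cd14, Tlr2, Tlr7, Tlr4, Tnfrsf1a, Tnfrsf1b), chemokines (Cxcl10, Cxcl16), the adhesion molecule Icam1, the inflammasome adaptor Pycard, the cytokine Tgfb1 and the NF-kB subunit Nfkb2. Among them Cxcl10 passed the filter on low counts only through the APP groups. The inhibitors and the adaptors and kinases had no member called. The median log2 fold change was 0.98 over the members and 0.01 over all genes tested, and 34 of the 37 estimates lay above 0. All 6 APP mice lay above all 4 WT mice for 16 members, as they did for 4.94% of all genes tested.

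Microglial RNA rose with these genes. Of 10 microglial markers 7 were called higher in vehicle-treated APP mice, with sums of 971 to 1957 CPM against 444 to 494 CPM in WT mice, and of 10 markers of plaque-associated microglia 8 were called, with sums of 1183 to 2237 CPM against 524 to 610 CPM. Astrocyte markers had 1 of 6 called, with sums of 5325 to 8382 CPM in APP mice and 3405 to 3759 CPM in WT mice, which did not overlap. The part of these cells in the member results was not tested, and in bulk tissue fewer cells of a type and less RNA per cell cannot be told apart. Markers of infiltrating leukocytes had 0 of 3 tested genes called, with sums of 0.624 to 5.44 CPM in APP mice and 0.489 to 3.08 CPM in WT mice.

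Among the receptors Cd14, which hands lipopolysaccharide to Tlr4, had the largest log2 fold change. It was at 1.69, 2.05, 2.07 and 2.64 CPM in the WT mice, and in the vehicle-treated APP mice its lowest, median and highest values were 5.84, 16.7 and 21.9 CPM. Every APP mouse lay above every WT mouse, and the log2 fold change was 2.90 ± 0.43 (SE, adjusted p = 0.00828, edgeR). Tlr2, a receptor of bacterial lipoproteins, was at 1.01, 1.10, 1.39 and 1.42 CPM in WT mice and at 3.07, 9.25 and 11.3 CPM (lowest, median and highest) in APP mice, a difference of 2.76 ± 0.50 on the log2 scale (adjusted p = 0.00879, edgeR). The lowest APP mouse for both genes was replicate 6, which still lay above the highest WT mouse. Tlr7, which senses single-stranded RNA in endosomes, rose from 2.73 ± 0.437 CPM (SD, n = 4) to 8.12 ± 1.98 CPM (SD, n = 6), with an adjusted p of 0.0197 from edgeR. Tlr4 rose from 0.489, 0.760, 0.897 and 1.05 CPM in the WT mice to 1.14, 1.97 and 2.90 CPM in the APP mice, where the lowest stood just above the highest WT mouse (log2 1.32 ± 0.32, adjusted p = 0.0329, edgeR). Tlr9, the endosomal receptor of unmethylated DNA, did not overlap between the groups either, at 1.43 to 1.66 CPM in WT and 1.78 to 3.52 CPM in APP mice, but its change of 0.77 ± 0.32 had an adjusted p of 0.263. Tlr3 differed least, at 11.4 ± 1.02 CPM in WT and 14.1 ± 1.99 CPM in APP mice (log2 fold change 0.31 ± 0.15, adjusted p = 0.370, edgeR).

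Both TNF receptors rose. Tnfrsf1b, the inducible receptor found mainly on microglia and other immune cells in the brain, was at 2.40, 2.82, 2.91 and 2.99 CPM in WT mice and at 4.81, 7.28 and 10.3 CPM (lowest, median and highest) in APP mice, a change of 1.40 ± 0.26 on the log2 scale (adjusted p = 0.00839, edgeR). Tnfrsf1a, the more widely expressed receptor that carries a death domain, was at 8.12, 8.47, 10.2 and 10.6 CPM and at 14.6, 24.3 and 50.7 CPM, a change of 1.52 ± 0.36 (adjusted p = 0.0352, edgeR). Its mean in APP mice was drawn up by replicate 1 at 50.7 CPM, and the call was kept in 9 of the 16 fits that left out 1 library.

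Of the 5 chemokines 2 rose, on few reads. Cxcl10, an interferon-inducible ligand that attracts T cells, was at 0.169, 0.245, 0.249 and 0.422 CPM in WT mice (4 to 10 reads) and at 0.891, 3.01 and 4.72 CPM in APP mice (20 to 107 reads), 10.9-fold higher (log2 3.44 ± 0.83, adjusted p = 0.0358, edgeR), and it stayed called in 7 of the 16 fits without 1 library. Cxcl16, a membrane-bound chemokine, was at 0.747, 1.12, 1.44 and 1.56 CPM and 2.81, 6.49 and 6.78 CPM, 4.66-fold higher (adjusted p = 0.0138, edgeR). Ccl2, which recruits monocytes, had 1 to 3 reads per WT library and 5 to 28 per APP library. Its groups did not overlap at 0.0422 to 0.149 and 0.269 to 1.23 CPM, and its change of 2.53 ± 0.76 missed the threshold in edgeR (adjusted p = 0.0995) and passed it in DESeq2 (adjusted p = 0.0435). Ccl5 and Ccl12 had estimates of 2.25 ± 0.89 and 1.56 ± 0.82 with adjusted p of 0.239 and 0.404 in edgeR, and their groups overlapped. Cxcl10, Ccl2, Ccl5 and Ccl12 passed the filter on low counts only through the APP groups, so the size of their change is uncertain.

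Of the cytokines only Tgfb1, which restrains immune activation and is needed to maintain microglia, passed the test among the 4 measured. It was at 3.34, 3.50, 3.63 and 3.81 CPM in WT mice and 7.66, 9.31 and 10.6 CPM in APP mice, 2.58-fold higher (log2 1.37 ± 0.26, adjusted p = 0.00879, edgeR), and it was called in all 16 fits without 1 library. Il1b and Il1a, the 2 ligands of the interleukin-1 receptor, were at 0.337, 0.338, 0.342 and 0.398 CPM and 0.538, 0.634, 0.647 and 0.759 CPM in WT mice. In APP mice Il1b was at 0.391, 0.892 and 1.81 CPM and Il1a at 0.643, 1.35 and 1.80 CPM, with 5 of 6 mice above every WT mouse for each gene. Their log2 fold changes of 1.53 ± 0.54 and 1.01 ± 0.34 did not pass the test (adjusted p = 0.176 and 0.153, edgeR). Il1b passed the filter on low counts only through the APP groups. Il18 was at 25.4 ± 4.16 CPM in WT and 22.4 ± 2.92 CPM in APP mice, one of 3 members with an estimate below 0 (log2 -0.18 ± 0.12, adjusted p = 0.517, edgeR).

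Of the 3 inflammasome genes 1 rose. Pycard, the adaptor that links sensors to caspase-1, was at 2.05, 2.09, 2.53 and 3.25 CPM in WT mice and 5.75, 8.91 and 12.9 CPM in APP mice, a change of 1.85 ± 0.35 on the log2 scale (adjusted p = 0.00879, edgeR). The sensor Nlrp3 was at 1.15, 1.39, 1.44 and 3.18 CPM in WT mice and 3.96, 4.61 and 6.89 CPM in APP mice, with no overlap, and its change of 1.49 ± 0.41 lay just outside the threshold (adjusted p = 0.0612, edgeR). The highest WT mouse for Nlrp3 was replicate 3 at 3.18 CPM, and without it the adjusted p was 0.0466. Casp1, the protease that cuts the interleukin-1 and interleukin-18 precursors, did not overlap between the groups either (2.41 to 3.93 against 4.11 to 11.1 CPM) at an adjusted p of 0.167. Icam1, an endothelial and microglial ligand for leukocyte integrins, rose 3.79-fold, from 0.847, 1.52, 1.71 and 2.36 CPM in WT mice to 2.49, 6.25 and 9.54 CPM in APP mice (adjusted p = 0.0224, edgeR). Vcam1 was at 27.1 ± 2.93 and 36.5 ± 12.5 CPM, with overlapping groups (adjusted p = 0.368, edgeR).

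Of the 5 NF-kB subunits 1 was called. Nfkb2 was at 1.69, 2.19, 2.59 and 2.87 CPM in WT mice and 3.34, 5.29 and 5.92 CPM in APP mice (log2 1.05 ± 0.28, adjusted p = 0.0487, edgeR), and it kept the call in 4 of the 16 fits without 1 library. Nfkb1, the p105 and p50 gene, and Rela had small positive estimates, 0.32 ± 0.13 and 0.37 ± 0.15, that did not pass (adjusted p = 0.256 and 0.276, edgeR). Relb was at 9.07 ± 0.476 CPM in WT and 9.37 ± 2.72 CPM in APP mice, and Rel, the c-Rel gene, at 0.882 ± 0.154 and 1.30 ± 0.648 CPM. Of the inhibitors, Nfkbia was at 26.4 ± 5.66 and 30.9 ± 3.89 CPM and Tnfaip3, the ubiquitin-editing feedback enzyme A20, at 10.3 ± 1.08 and 10.6 ± 2.38 CPM, with estimates of 0.22 ± 0.14 and 0.03 ± 0.16. Nfkbib, Nfkbie and Nfkbiz had estimates of 0.14 ± 0.12, 0.37 ± 0.24 and -0.01 ± 0.19. The adaptor Myd88 had an estimate of 0.28 ± 0.20, and the estimates of the 5 adaptors and kinases ran from -0.17 (Traf6) to 0.36 (Irak4), with 0 called and 0 at an unadjusted p under 0.05.

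**Figure D3:**
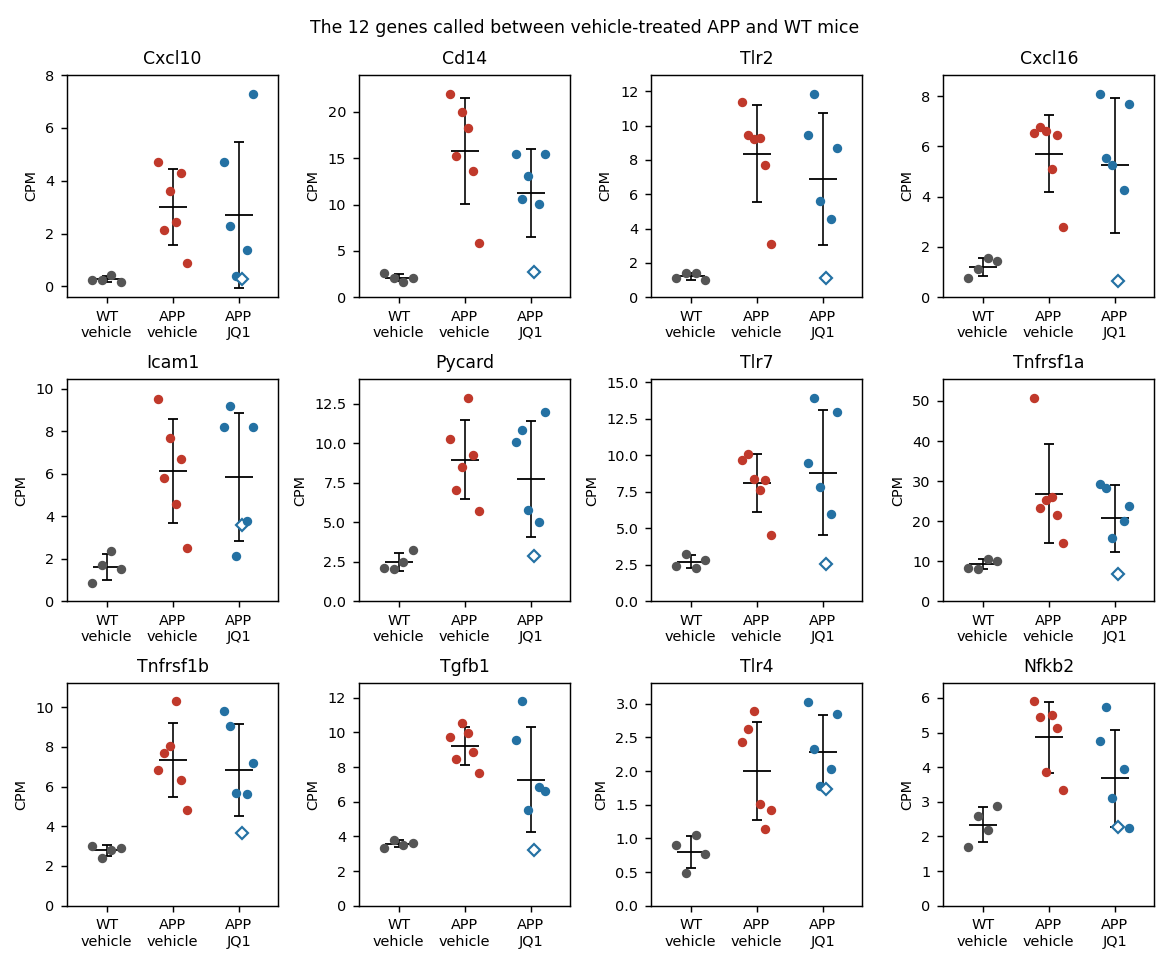
CPM of the 12 genes called between vehicle-treated APP mice (n = 6) and WT mice (n = 4), with the JQ1-treated APP mice (n = 6) beside them, each point 1 mouse and bars the mean and SD. All 6 vehicle-treated APP mice lie above all 4 WT mice in each panel, and the library labelled APP_JQ1 replicate 4 (open diamond) was the lowest of its group for 10 of the 12 genes and not above the highest WT mouse for 8.

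The number of members called was lowest when a WT mouse was left out, at 5 without WT_vehicle replicate 1 and at 6 without replicate 3 or without replicate 5. Tgfb1, Tnfrsf1b, Tlr2, Cd14 and Pycard were called in all 16 fits that left out 1 library. Without the 4 libraries that lay apart, 10 members were called, and without the library labelled APP_JQ1 replicate 4, which shares the estimate of the spread, 13 were. That last fit called 563 of 16948 genes higher and 38 lower, where the fit with all libraries called 436 of 16962. The range of all genes called over the fits without 1 library is given in the closing section.

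JQ1 changed none of the 37 members in APP mice at an adjusted p under 0.05, in edgeR or in DESeq2, where 1.08% of all genes tested were called in edgeR. At an unadjusted p under 0.05 there were 3 in each, which in edgeR were Nfkbib, Nfkbie and Relb. Of the 37 estimates 26 lay below 0 (70.3%), against 50.2% of all genes tested, with a median of -0.14 over the members and -0.001 over all genes. Without the library labelled APP_JQ1 replicate 4, 24 of 37 lay below 0 (64.9%) beside 48.8% of all genes, the median was -0.03, and 0 members and 0.431% of all genes were called. At an unadjusted p under 0.05 that fit again had 3 of the 37 members, where 2298 of all 16948 genes tested were under it. This was a smaller share among the members than among all genes. Between the fits 6 of the 37 estimates changed sign, Cxcl10, Cxcl16, Tnfrsf1b and Icam1 to above 0 and Rel and Traf6 to below 0. Without the 4 libraries that lay apart, 21 of 38 lay below 0 with a median of -0.04. The 10 microglial markers had 0 called, with sums of 492.6 to 1847 CPM after JQ1, or 1090 to 1847 CPM without that library, against 971 to 1957 CPM after vehicle. Those of plaque-associated microglia summed to 580 to 2265 CPM after JQ1 and 1183 to 2237 CPM after vehicle. Without that library, their JQ1 sums were 1364 to 2265 CPM and 0 of 10 were called. In that fit 8 of these 10 lay below 0 (median -0.09), beside 4 of the 10 microglial markers (median 0.06). By role, 4 of 5 subunits, 4 of 5 inhibitors, 4 of 5 chemokines and 2 of 6 Toll-like receptors and co-receptors lay below 0 with all libraries, and 5, 4, 2 and 2 of them without that one.

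Among the members the inhibitors and subunits gave the lowest p-values. Nfkbib was at 15.3, 16.6 and 17.3 CPM (lowest, median and highest) in the 6 JQ1-treated APP mice and at 18.2, 20.1 and 25.4 CPM in the 6 vehicle-treated ones. All 6 JQ1 libraries lay below all 6 vehicle libraries, as they did for 1.15% of all genes tested, and Nfkbib was the only such member. The log2 fold change was -0.33 ± 0.11 (adjusted p = 0.117, edgeR). With APP_JQ1 replicate 4 (17.1 CPM) left out, the change was -0.34 ± 0.11 (adjusted p = 0.193, edgeR). WT mice ranged from 14.7 to 21.5 CPM and overlapped both APP groups. The study lists Nfkbib among its JQ1-regulated genes from these same mice, so this is not independent evidence of its direction.

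Nfkbie, the gene of IkB epsilon, was at 1.52, 2.31 and 2.64 CPM after JQ1 and 2.23, 3.15 and 4.37 CPM after vehicle, with overlapping groups and a log2 fold change of -0.55 ± 0.22 (adjusted p = 0.202, edgeR). Relb, the partner of p52 in the noncanonical pathway, was at 5.88, 7.12 and 8.35 CPM after JQ1 and 4.85, 9.39 and 12.8 CPM after vehicle (log2 -0.41 ± 0.18, adjusted p = 0.238, edgeR). The lowest of all was a vehicle-treated APP mouse, replicate 4. Rela was at 28.0 ± 5.68 CPM after JQ1 and 34.2 ± 5.65 CPM after vehicle (log2 -0.29 ± 0.14, adjusted p = 0.289, edgeR). Nfkb1 and Nfkbia differed by less, with log2 fold changes of -0.07 ± 0.12 and 0.06 ± 0.13, and Tnfaip3 had -0.05 ± 0.15. Without the library labelled APP_JQ1 replicate 4 the estimates were -0.49 ± 0.23 for Nfkbie, -0.44 ± 0.19 for Relb, -0.22 ± 0.14 for Rela, -0.00 ± 0.11 for Nfkb1, 0.07 ± 0.14 for Nfkbia and -0.11 ± 0.15 for Tnfaip3. None of these passed the test after adjustment in either fit (edgeR).

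**Figure D4:**
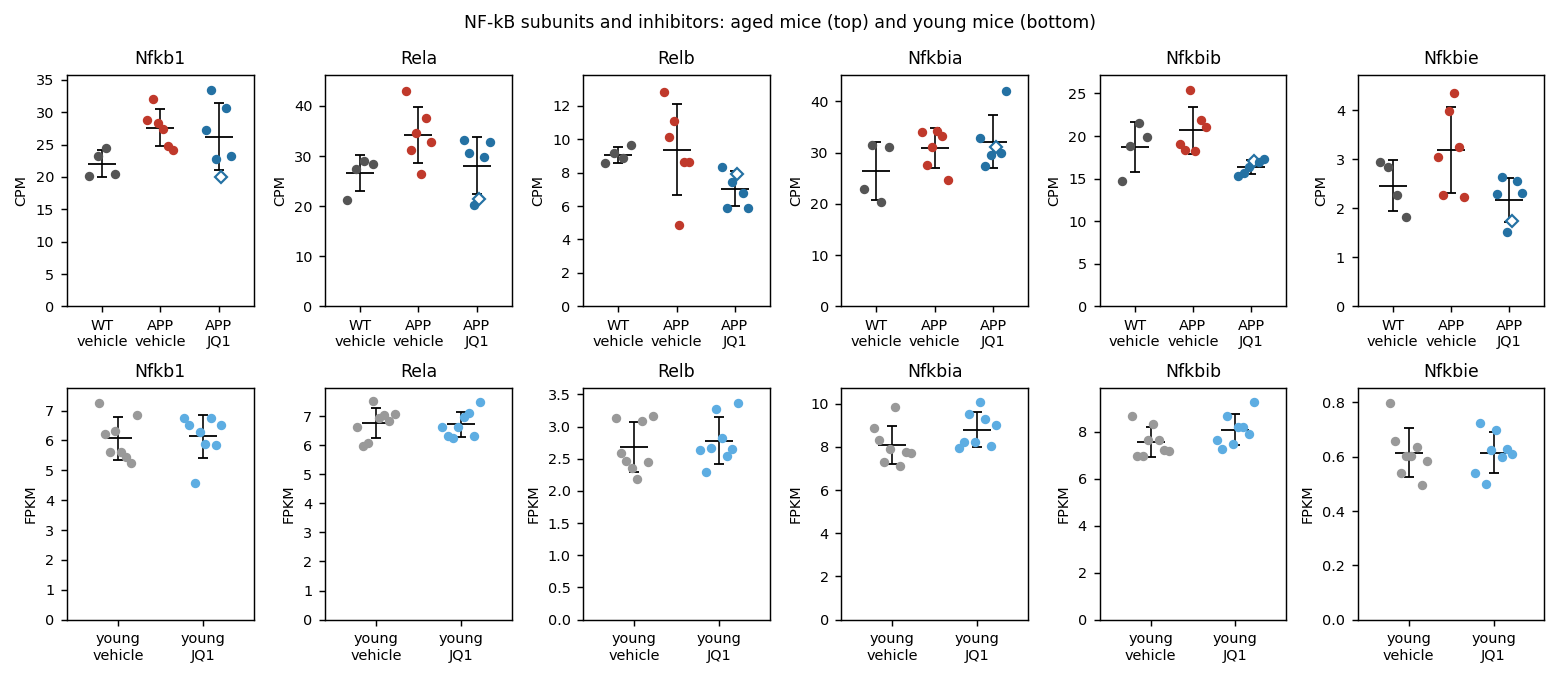
Levels of 3 NF-kB subunits (Nfkb1, Rela, Relb) and 3 inhibitors (Nfkbia, Nfkbib, Nfkbie) in the aged mice in CPM (top row) and in the young mice in FPKM (bottom row, n = 8 per group), each point 1 mouse and bars the mean and SD. For Nfkbib the 6 JQ1-treated APP mice (15.3 to 17.3 CPM) lie below the 6 vehicle-treated ones (18.2 to 25.4 CPM), whereas the young groups overlap; the open diamond is the library labelled APP_JQ1 replicate 4.

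Ccl5, Il1b and Nfkbie had the lowest estimates after JQ1. Ccl5, a chemokine of T cells and monocytes, was at 0, 0.212 and 0.686 CPM after JQ1 and 0.223, 0.534 and 1.21 CPM after vehicle, from 0 to 17 and 5 to 31 reads, and its log2 fold change of -1.13 ± 0.71 did not pass (adjusted p = 0.428, edgeR). With APP_JQ1 replicate 4 left out, which had no read of it, the change was -0.89 ± 0.68. Il1b was at 0.203, 0.656 and 1.26 CPM after JQ1 and 0.391, 0.892 and 1.81 CPM after vehicle, and its change of -0.56 ± 0.45 (adjusted p = 0.554, edgeR) was -0.42 ± 0.47 without that library. Il1a had an estimate of -0.27 ± 0.29 and Ccl2 of -0.44 ± 0.57, or -0.20 ± 0.31 and -0.23 ± 0.56 without that library, each with overlapping groups. Tnf was at 0, 0.0633, 0.0662, 0.0666, 0.107 and 0.202 CPM in the 6 JQ1-treated APP mice and at 0, 0.0891, 0.157, 0.198, 0.216 and 0.439 CPM in the 6 vehicle-treated ones, all at 10 reads or fewer, which is too few for a comparison. The library labelled APP_JQ1 replicate 4 was at 0.0666 CPM. Il6 had 0 to 2 reads after JQ1 and 0 to 5 after vehicle.

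The highest estimates after JQ1 were those of Ccl12, Tlr4 and Tlr3, and none passed the test. Ccl12, a monocyte chemokine, was at 0.467, 0.694 and 7.61 CPM after JQ1 and 0.401, 0.984 and 3.84 CPM after vehicle, and its estimate of 0.34 ± 0.67 rested on APP_JQ1 replicate 6 at 7.61 CPM, without which it was -0.88. Tlr4 was at 1.73, 2.18 and 3.02 and 1.14, 1.97 and 2.90 CPM (log2 0.19 ± 0.27, adjusted p = 0.756, edgeR) and Tlr3 at 12.1, 16.1 and 19.8 and 11.9, 13.8 and 16.9 CPM (log2 0.17 ± 0.14, adjusted p = 0.540, edgeR). Corrected for GC and gene length, the Tlr4 and Tlr3 estimates were -0.0051 and -0.013. Without the library labelled APP_JQ1 replicate 4 the estimates were 0.54 ± 0.68 for Ccl12, 0.26 ± 0.28 for Tlr4 and 0.24 ± 0.13 for Tlr3. The adaptor Myd88 and the adhesion molecule Vcam1 had estimates of -0.21 ± 0.18 and 0.04 ± 0.19, and -0.15 ± 0.18 and 0.10 ± 0.20 without that library.

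The 12 members that were higher in vehicle-treated APP than in WT mice had JQ1 estimates that were, for all 12, higher without the library labelled APP_JQ1 replicate 4 than with it. That library was the lowest of its group for 10 of the 12 and not above the highest WT mouse for 8, so this shift follows from its levels. The 12 were also chosen by the vehicle values that are the baseline here, which tends to draw their JQ1 estimates down. Cd14 was at 11.2 ± 4.74 CPM (SD, n = 6) after JQ1, and at 12.9 ± 2.56 CPM (SD, n = 5) without that library, against 15.8 ± 5.73 CPM after vehicle. Its log2 fold change was -0.49 ± 0.33 with the library and -0.28 ± 0.25 without it (adjusted p = 0.469 and 0.663, edgeR). For Tlr2 the corresponding estimates were -0.28 ± 0.38 and -0.05 ± 0.28, for Cxcl16 -0.12 ± 0.37 and 0.11 ± 0.24, for Tnfrsf1a -0.37 ± 0.31 and -0.19 ± 0.25 and for Pycard -0.20 ± 0.28 and -0.03 ± 0.24. Tlr7 went from 0.12 ± 0.29 to 0.31 ± 0.22 and Icam1 from -0.07 ± 0.36 to 0.04 ± 0.37. A miss of the threshold does not show that the levels were the same, since an SE of this size leaves smaller changes undetected.

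**Figure D5:**
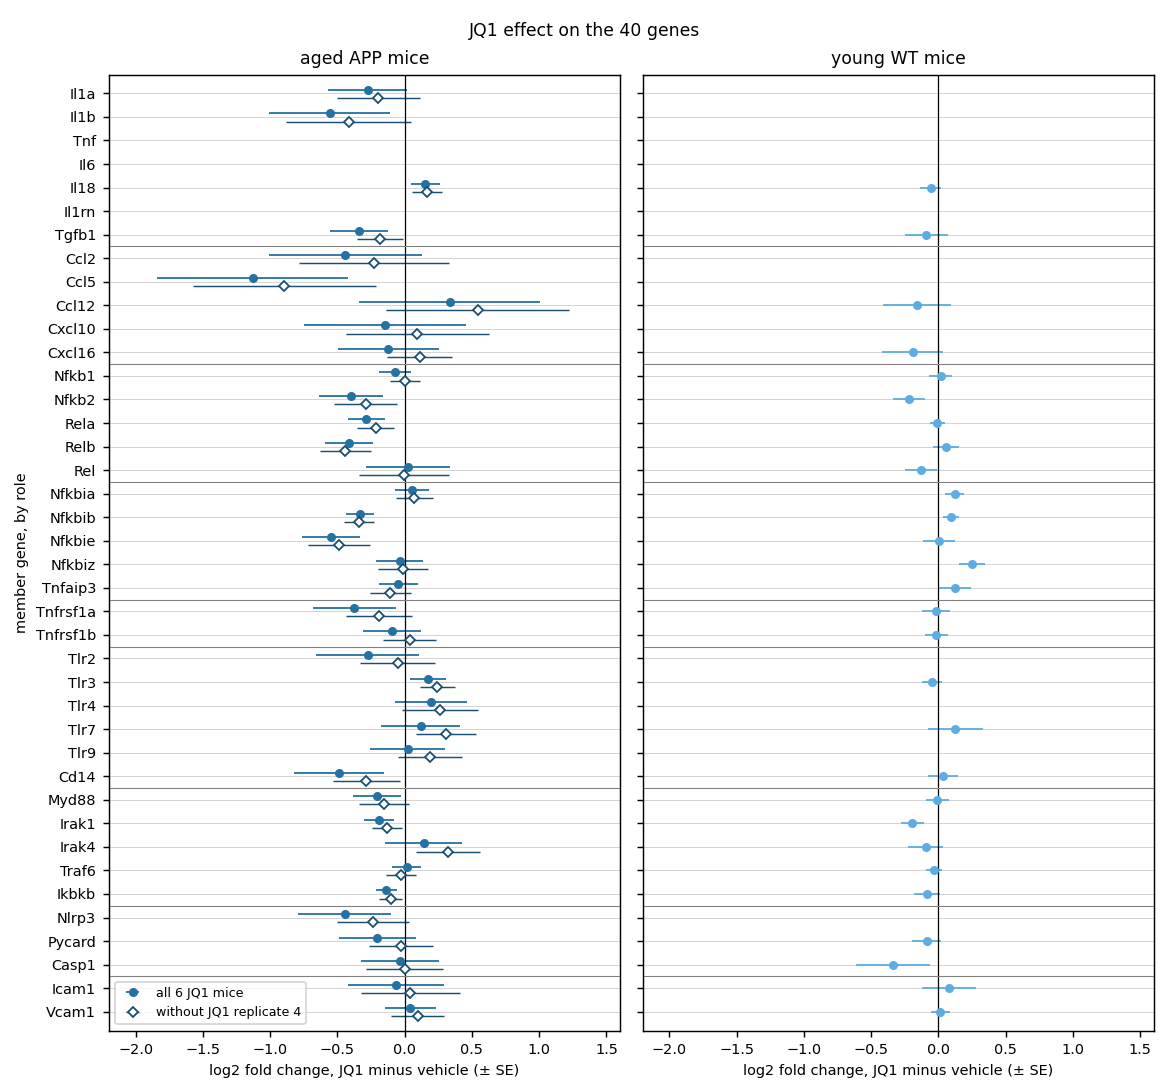
Log2 fold changes of JQ1 against vehicle with their SE for the 40 genes by role, in aged APP mice (left, filled with all 6 JQ1 mice and open without APP_JQ1 replicate 4) and in young WT mice (right), genes that were not tested left blank. No gene passed an adjusted p of 0.05, and the lowest estimate in APP mice was that of Ccl5 (-1.13 with all libraries).

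Set against WT mice, the JQ1-treated APP mice had 9 members called, all higher, where 2.06% of all genes tested were called and 1.93% were called higher. They were Cd14, Tlr2, Tlr7, Tlr4, Tnfrsf1b, Cxcl16, Pycard, Icam1 and Tgfb1, with log2 fold changes from 1.03 (Tgfb1) to 2.48 (Tlr2). Without the library labelled APP_JQ1 replicate 4, 12 members and 3.84% of all genes were called, and Cxcl10, Tnfrsf1a and Nlrp3 joined the 9. Tlr2 then had a log2 fold change of 2.69 ± 0.35 (adjusted p = 1.17e-04, edgeR) and Cd14 2.60 ± 0.31 (adjusted p = 6.07e-05, edgeR). Nfkb2 was at 3.67 ± 1.40 CPM after JQ1 and was not called against WT in either fit (0.66 ± 0.27 with all libraries, 0.75 ± 0.27 without that one). The microglial markers rose in this comparison too, with 6 of 10 called with all libraries, at sums of 492.6 to 1847 CPM. Without the library labelled APP_JQ1 replicate 4, 9 of 10 were called, at sums of 1090 to 1847 CPM. Astrocyte markers had 3 of 6 called with all libraries, Gfap (7.56-fold), Aqp4 (1.81-fold) and Slc1a3 (1.40-fold), and the part of both cell types was not tested. Without the 4 libraries that lay apart 11 members were called. This comparison shares its WT mice with the one above, and in it 0 members were called without WT_vehicle replicate 3, 4 or 5 and 2 without replicate 1. The numbers of all genes called in fits of this kind are given in the closing section.

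In young WT mice JQ1 changed none of the 28 members that could be tested (limma on log2(FPKM + 0.1)), where 0.00543% of 18420 loci were called. At an unadjusted p under 0.05 there were 2, Nfkbiz and Irak1. Il1a, Il1b, Tnf, Il6, Il1rn, Ccl2, Ccl5, Cxcl10, Tlr2, Tlr4, Tlr9 and Nlrp3 were under the FPKM minimum and were not tested. Of the 28 estimates 17 lay below 0, where 48.9% of all loci did, and the median was -0.02. For no tested member did the 8 JQ1-treated mice separate from the 8 vehicle-treated mice.

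The genes with the largest estimates in young mice are given next, and none passed the test. Nfkbiz, an inducible nuclear IkB protein that acts as a cofactor at secondary response genes, was at 2.04, 2.73 and 3.50 FPKM (lowest, median and highest) after JQ1 and 1.99, 2.18 and 2.48 FPKM after vehicle, and 5 of the 8 JQ1 mice lay above every vehicle mouse. The log2 fold change was 0.25 ± 0.10 (adjusted p = 0.981, limma). Irak1, a kinase downstream of MyD88 whose locus was joined with Mir5132 and Mir718 in the FPKM files, was at 24.3, 30.6 and 37.1 FPKM after JQ1 and 27.9, 35.0 and 39.2 FPKM after vehicle (log2 -0.19 ± 0.09, adjusted p = 0.981, limma). Nfkb2 was at 0.429, 0.529 and 0.751 and 0.558, 0.641 and 0.723 FPKM, with 6 JQ1 mice below every vehicle mouse and 1 above them all, replicate 1 at 0.751 FPKM (log2 -0.22 ± 0.12, adjusted p = 0.981, limma). Tnfaip3, Tlr7 and Casp1 had log2 fold changes of 0.13 ± 0.12, 0.12 ± 0.20 and -0.34 ± 0.27.

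The 5 inhibitors and feedback genes all had estimates above 0 in the young mice, from 0.01 (Nfkbie) to 0.25 (Nfkbiz), and the 5 adaptors and kinases all had estimates below 0, from -0.19 (Irak1) to -0.01 (Myd88). Nfkbia was at 8.81 ± 0.790 FPKM (SD, n = 8) after JQ1 and 8.10 ± 0.891 FPKM (SD, n = 8) after vehicle, and Rela at 6.71 ± 0.443 and 6.76 ± 0.516 FPKM. Nfkb1, Vcam1 and Myd88 each had an estimate within 0.02 of 0. Of the cytokines that were not tested, Il1b was at 0.0678, 0.240 and 0.757 FPKM after JQ1 and 0.126, 0.282 and 0.718 after vehicle, Tnf at 0, 0.0130 and 0.0767 and 0, 0.0109 and 0.0548 FPKM, and Ccl2 at 0, 0.0530 and 0.250 and 0, 0.0806 and 0.224 FPKM. Tlr2 and Tlr4 were likewise low at 0.285 ± 0.0864 and 0.448 ± 0.160 FPKM after JQ1 and 0.284 ± 0.0676 and 0.434 ± 0.0901 FPKM after vehicle, and Icam1 was at 0.684 ± 0.262 and 0.611 ± 0.114 FPKM. Microglial marker sums overlapped, at 199 to 252 FPKM after JQ1 and 213 to 243 FPKM after vehicle.

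Because the sign differed for some members, the difference between the JQ1 effects of the 2 experiments was tested itself. Of the 28 members measured in both, 0 passed (limma), where 1.34% of 13522 shared genes did, and 2 had an unadjusted p under 0.05, Nfkbib and Nfkbie. Nfkbib differed by -0.41 ± 0.11 (APP minus young, adjusted p = 0.0667, limma) and Nfkbie by -0.45 ± 0.21 (adjusted p = 0.286, limma). The 95% interval for Nfkbib ran from -0.63 to -0.19 by a normal approximation, which is narrower than that of the moderated t test. Of the 28 differences 20 lay below 0, among them those of all 5 inhibitors and feedback genes, where 49.1% of all shared genes did. Without the library labelled APP_JQ1 replicate 4 the difference for Nfkbib was -0.42 ± 0.12 (adjusted p = 0.0972, limma), and the difference for Nfkbie was -0.41 ± 0.21 (adjusted p = 0.444, limma). In that fit 0 members passed where 0.614% of all shared genes did, and 15 of the 28 differences, the 5 inhibitors among them, lay below 0 where 49.3% of all shared genes did. At an unadjusted p under 0.05 it had 1 of the 28 members and 1662 of the 13522 shared genes, a smaller share among the members. Age, sex, genotype, strain label, number of injections, counting method and unit all differed between the experiments, so their parts cannot be told apart.

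A wider list of 104 other genes of the same pathways was read from the same fits. In vehicle-treated APP mice 14 of the 85 measured were called higher than in WT mice and none lower, where 2.49% of all genes tested were called higher. Their median log2 fold change was 0.22, beside 0.01 over all genes tested. Ccl4 and Ccl3, macrophage inflammatory chemokines, were at or near the level of 3 reads in WT mice, with 1 to 3 and 2 to 7 reads per library, and had 43 to 80 and 75 to 150 reads in vehicle-treated APP mice (adjusted p = 0.00662 and 0.00828, edgeR). They passed the filter on low counts through the APP groups, so the size of their rise is uncertain. Bcl3, an atypical IkB protein, had a log2 fold change of 3.98 ± 0.81, and Ccl6 of 3.40 ± 0.65. Bcl3 was at 0.271 ± 0.0505 CPM in WT mice and passed the filter in the same way, so the size of its rise is uncertain too. Tlr12, a Toll-like receptor that humans lack, rose by 2.02 ± 0.35 on the log2 scale and Il6ra, the interleukin-6 receptor, by 0.76 ± 0.18, and both subunits of the TGF-beta receptor rose, Tgfbr2 from 15.7 ± 2.62 to 40.8 ± 6.88 CPM and Tgfbr1 from 25.2 ± 3.06 to 55.2 ± 13.3 CPM. Ikbke, a kinase induced by NF-kB, and Gsdmd, the pore protein cut by caspase-1, rose by 1.28 ± 0.29 and 1.15 ± 0.25 on that scale. JQ1 in APP mice changed 0 of these 85 genes in edgeR, where 1.08% of all genes tested were called. Of the 85, 9 had an unadjusted p under 0.05, and the median was -0.07. Without the library labelled APP_JQ1 replicate 4 it changed 0, where 0.431% of all genes were called. In that fit 8 of the 85 had an unadjusted p under 0.05, where 2298 of all 16948 genes tested did, a smaller share among the 85. The median of the 85 was 0.001. In young WT mice 0 of 67 were called in limma, with 6 at an unadjusted p under 0.05, where 0.00543% of all loci were called. The study lists Tlr13 as lowered by JQ1 in these young mice and Tab3 as raised by JQ1 in the APP mice. Here neither was called. Tlr13 had a log2 fold change of -0.67 ± 0.51 in young mice (adjusted p = 0.981, limma), with an uneven vehicle group (2.05 ± 3.64 FPKM, SD, n = 8). Against WT, the JQ1-treated APP mice had 9 of the 85 called higher, where 1.93% of all genes tested were called higher. Without the library labelled APP_JQ1 replicate 4 they had 19, where 3.84% of all genes were called in either direction.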

How the data were processed

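RNA of the CA1 field was sequenced on a HiSeq2000 from 16 aged and 16 young mice. For the aged mice the authors ran STAR against mm10 with a limit of 2 mismatches per read and deposited the htseq counts per gene. For the young mice the authors deposited FPKM values per locus, made with cufflinks and cuffdiff. The submitters' processing notes also name CASAVA 1.8.2 and TopHat. A median of 43.1% of the reads of an aged library lay in 5 rows that name no gene, which were left out. Reads on genes ranged from 14605459 to 25339482 per aged library, which limits genes of few reads, and the depth behind the FPKM values is unknown.

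Counts were tested with edgeR 4.0.16 (R 4.3.3) by the quasi-likelihood test with TMM scaling, filterByExpr and the 3 aged groups in 1 fit. FPKM values were tested with limma 3.58.1 on log2(FPKM + 0.1), for loci of at least 0.5 FPKM in 8 of 16 mice, so that fold changes of low genes are understated. The difference of the JQ1 effects was tested with limma on log2(CPM + 0.5) and log2(FPKM + 0.1), with weights by experiment. P-values were adjusted by Benjamini-Hochberg over all features of a fit, with a threshold of 0.05. The fits were tested on simulated data. DESeq2 1.42.0, other scalings and filters, a GC and length correction, a replicate block and leaving out libraries were tried as alternatives, and leaving out APP_JQ1 replicate 4, or the 4 libraries that lay apart, was chosen after seeing the data.

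Groups came from the labels. One of the transgenes is not reported here. Same-numbered mice of the 2 APP groups correlated by 0.124 on average (-0.107 to 0.342), and differently numbered ones by -0.021. For vehicle-treated APP and WT mice the averages were -0.049 and 0.02, and for JQ1-treated APP and WT mice -0.215 and 0.05. Whether the numbers paired mice is not known, and the main fits did not pair them. The members and lists were chosen with earlier results of these data known. Genes are named with values where they were called in a comparison, where groups did not overlap, where they were among the 3 largest JQ1 estimates in each direction, or where they belonged to a set of 14 central members, and of other pathway genes at most 10 with the smallest adjusted p were named. Tlr13 and Tab3 were named besides, because the study lists them. Rel was joined with Gm20645 in the FPKM files. Il18 had 3 loci in them, of which the locus with the highest mean FPKM was used. Related chemokine genes (Ccl2, Ccl12) may share reads, which was not tested. Promoters came from RefSeq (GRCm38.p6).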

Additional observations from a re-analysis of the deposited data

Results flagged for a closer look

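Of the 167 groups of values of single genes that were examined, 16 (9.58%) held a mouse whose gap to its nearest neighbour was large against the range of its group by Dixon's 95% criterion, where chance flags about 1 in 20. In the WT mice these were Il1b in replicate 1 (0.399 CPM), Ccl5 in replicate 4 (0.422 CPM), Tlr9 in replicate 4 (1.43 CPM), Ikbkb in replicate 1 (57.0 CPM) and Nlrp3 in replicate 3 (3.18 CPM). In the vehicle-treated APP mice they were Ccl2 in replicate 5 (1.23 CPM), Tnfrsf1a in replicate 1 (50.7 CPM) and Irak1 in replicate 4 (101.8 CPM). In the JQ1-treated APP mice they were Ccl12 (7.61 CPM) and Casp1 (13.9 CPM), both in replicate 6. In the young JQ1 mice they were Nfkb1 in replicate 3 (4.58 FPKM), Nfkb2 in replicate 1 (0.751 FPKM), Tnfaip3 in replicate 4 (2.88 FPKM) and Tnfrsf1a in replicate 8 (5.53 FPKM). In the young vehicle mice they were Tnfaip3 in replicate 7 (2.10 FPKM) and Tnfrsf1a in replicate 8 (6.29 FPKM).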

How the results depend on the processing

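For JQ1 in APP mice 184 genes were called in edgeR, 749 by DESeq2, 87 with the replicate block, 43 with the GC and length correction, 35 with that correction and the replicate block, 76 without the 4 libraries that lay apart, and 65 to 446 when 1 library was left out. For vehicle-treated APP against WT mice 436 genes became 679 with these 2 groups alone, 804 by DESeq2, 35 with the block, 47 with the correction and the block, and 154 to 601 without 1 library, and the 12 members became 1 with the block, 1 with the correction and the block, and 5 to 13 without 1 library. For JQ1-treated APP against WT mice 349 genes became 227 with 2 groups, 790 by DESeq2, 21 with the block, 46 with the correction and the block, 667 without the 4 libraries, and 11 to 651 without 1 library, and the 9 members became 4 with 2 groups, 0 with the block, 0 with the correction and the block, and 0 to 12 without 1 library. The 1 young locus became 0 without the filter, 0 with the block and 0 to 2 without 1 library, and for the difference of JQ1 effects 1 member was called without weights. Whether the numbers paired the mice is not known. With the block the log2 fold changes of the 12 members in APP against WT mice ran from 1.06 to 3.33, all above 0. Among the genes named for this comparison, signs reversed for JQ1 in APP mice in Ccl12 (-0.33 with the block, -0.54 with the correction and the block, -0.88 to 0.86 without 1 library, the lowest without APP_JQ1 replicate 6), Tlr4 (-0.0051 with the correction) and Tlr3 (-0.013 with the correction, -0.027 with the correction and the block). Over all 37 members, leaving out APP_JQ1 replicate 4 changed the sign of 6 estimates. The causes were not tested. Cytokine genes of under 10 reads per library were limited by depth.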
